A study of Mus musculus with 2 samples.

Results

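Open promoters of low CpG content in the midbrain of mouse embryos were taken as transcription start sites (TSSs) of protein-coding genes on chromosomes 1 to 19 that met 2 conditions. The ratio of observed to expected CpG dinucleotides within 500 bp on either side of the TSS was below 0.27, and a deposited DNase-seq peak lay within 500 bp in both replicates. They numbered 847 TSSs of 623 genes, out of 11481 TSSs of this low CpG range and 39627 protein-coding TSSs in all. Because the members were chosen by the presence of peaks, their openness is a description and not a finding. They were compared with the 9099 TSSs of the same CpG range that had no such peak in either replicate, called closed here, while 613 had a peak in replicate 1 only and 922 in replicate 2 only.

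DNase-seq maps open chromatin by sequencing the places that the nuclease DNase I can cut. The series holds 1 group, midbrain of B6NCrl embryos at embryonic day 11.5, in 2 biological replicates that carry the same donor label, and embryos of both sexes were pooled. The labels name no treatment, genetic change or control. Sequencing used a HiSeq and a NextSeq instrument for replicate 1 and HiSeq instruments alone for replicate 2, so instrument and replicate cannot be told apart. The deposited lists hold 300618 peaks for replicate 1 and 447681 for replicate 2 on these chromosomes, all 150 bp wide, with no read totals, so the depth behind each peak is unknown.

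In mammals CpG dinucleotides are lost over evolutionary time where the DNA is methylated in the germ line, and most promoters of broadly used genes escape this as CpG islands. Promoters outside islands usually belong to genes used in few tissues, are often methylated where they are silent, and more often carry a TATA box, which places the transcription machinery a fixed distance before the start. They depend on sequence-specific factors to open, such as the basic helix-loop-helix (bHLH) and Sox proteins of developing neural tissue.

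The promoter sequences below are shown because they belong to the open low-CpG TSSs with the strongest peaks and to neural genes among them. All were read from mm10 (GRCm38.p6) on the strand of the gene, end at the base before the TSS and lie in no annotated exon. The first 4 are the strongest members with a TATA box at its usual place whose 60 upstream bases hold no exon (Ankrd2, higher by mean percentile, was passed over for that reason), with TATAAA on either strand in capitals.

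Zbtb18, 60 bases, plus strand, chr1:177444878-177444937: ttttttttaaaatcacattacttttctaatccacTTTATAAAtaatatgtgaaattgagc
Adamtsl2, 60 bases, plus strand, chr2:27079319-27079378: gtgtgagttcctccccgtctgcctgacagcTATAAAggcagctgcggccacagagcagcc
Itgal, 60 bases, plus strand, chr7:127309458-127309517: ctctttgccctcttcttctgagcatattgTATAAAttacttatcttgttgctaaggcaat
Foxp2, 60 bases, plus strand, chr6:15184587-15184646: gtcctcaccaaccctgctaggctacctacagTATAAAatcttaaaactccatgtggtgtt

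The next 4 are the strongest members without such a TATA box, again with no exon in the 60 bases, which passed over Tead2 and Ddr1. Only the letters TATAAA were counted, so Btbd17, whose sequence holds the similar letters tatataag, stands among them. Capitals mark GTTGCC on either strand, the half-site of the RFX factors, which switch on genes of cilia and of antigen presentation.

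Fam92b, 60 bases, minus strand, chr8:120177467-120177526: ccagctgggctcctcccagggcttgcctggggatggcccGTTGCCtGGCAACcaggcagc
Btbd17, 60 bases, minus strand, chr11:114795898-114795957: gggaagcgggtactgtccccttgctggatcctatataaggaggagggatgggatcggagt
St5, 60 bases, minus strand, chr7:109617148-109617207: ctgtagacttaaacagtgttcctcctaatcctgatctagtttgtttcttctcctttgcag
Angptl2, 60 bases, plus strand, chr2:33216009-33216068: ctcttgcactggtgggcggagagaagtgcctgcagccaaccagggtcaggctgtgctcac

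The last 5 are promoters of neural genes, chosen after their values were seen, over 150 bases. Capitals mark, on either strand, CCAAT (the site of NF-Y), ACAATG (a Sox site), CAGCTG or CAGATG (E-boxes, bound by bHLH factors) and GTTGCC.

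Fabp7, plus strand, chr10:57784731-57784880: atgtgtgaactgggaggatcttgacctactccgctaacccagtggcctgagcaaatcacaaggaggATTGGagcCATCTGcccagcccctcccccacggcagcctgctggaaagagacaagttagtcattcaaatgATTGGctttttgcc
Ttyh1, plus strand, chr7:4124339-4124488: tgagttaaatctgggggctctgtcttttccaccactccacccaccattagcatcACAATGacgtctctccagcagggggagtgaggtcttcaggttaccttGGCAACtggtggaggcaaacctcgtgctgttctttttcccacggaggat
Myt1, plus strand, chr2:181763182-181763331: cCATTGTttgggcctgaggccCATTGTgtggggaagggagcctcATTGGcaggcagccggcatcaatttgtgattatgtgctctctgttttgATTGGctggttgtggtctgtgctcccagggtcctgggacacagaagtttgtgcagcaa
Nhlh1, minus strand, chr1:172057574-172057723: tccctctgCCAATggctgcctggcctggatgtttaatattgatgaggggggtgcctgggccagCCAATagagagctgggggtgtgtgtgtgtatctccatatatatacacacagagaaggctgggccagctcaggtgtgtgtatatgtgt
Neurod4, minus strand, chr10:130280241-130280390: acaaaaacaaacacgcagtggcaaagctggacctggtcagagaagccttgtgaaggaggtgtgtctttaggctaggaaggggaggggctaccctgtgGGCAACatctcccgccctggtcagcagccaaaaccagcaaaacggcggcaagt

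The 847 open TSSs were 7.38% of all low-CpG TSSs, against 63.6% of all protein-coding TSSs and 86.5% of those at a ratio of 0.27 or more. Closed TSSs were 79.3% of the low range, 29.3% of all and 8.99% of those at 0.27 or more. Since the rule used the peaks, nothing is read from this gap. In the single replicates, 12.7% and 15.4% of low-CpG TSSs had a peak within 500 bp, a mean of 14.1% ± 1.90 (SD, n = 2). At a ratio of 0.27 or more the replicates had 88.1% and 89.5%. The share open in both rose with the ratio inside the low range itself, from 0.673% below 0.05 to 16.0% between 0.2 and 0.27. It went on to 35.6% just above the limit, between 0.27 and 0.4. It also rose with base composition, from 1.66% of low-CpG TSSs with a GC content under 42% to 21% of those at 54% or more. The share thus changed by degrees on both sides of the limit.

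**Figure D1:**
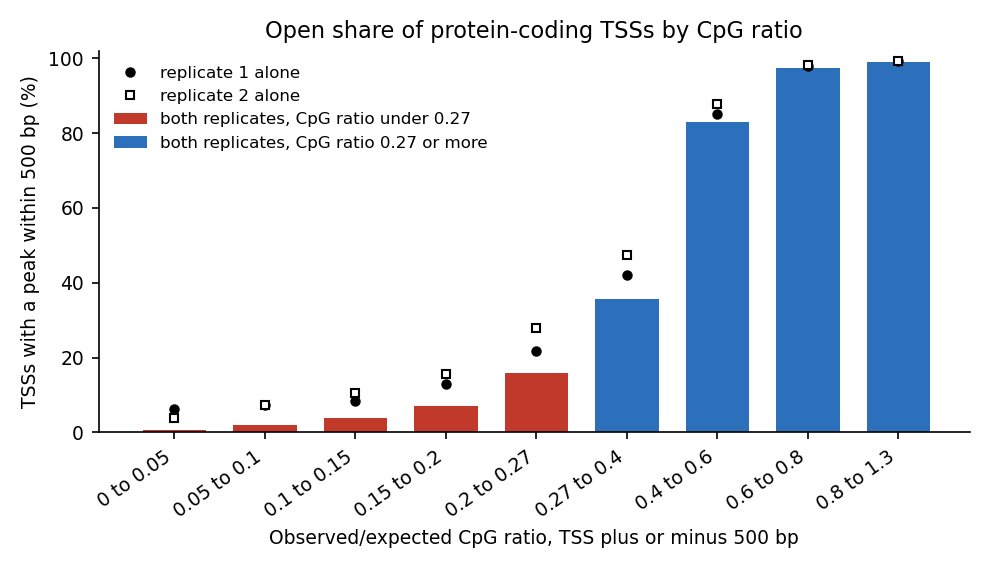
Share of protein-coding TSSs with a peak within 500 bp, by observed/expected CpG ratio: bars give both replicates together (red below 0.27, blue from 0.27), filled circles replicate 1 alone and open squares replicate 2 alone. The share in both climbs from 0.673% in the lowest class to 16.0% in the last red bar and 35.6% in the first blue one.

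Peaks are also common away from promoters, and the same positions moved by 10 kb give the level of chance proximity measured in these lists. After a move of 10 kb upstream 4.81% of the low-CpG TSSs had a peak within 500 bp in both lists, and after a move downstream 4.54%. The true TSS was set against moved positions at closer distances too. Within 150 bp of a peak of both lists lay 4.66% of low-CpG TSSs, against 2.13% and 1.79% of moved positions, and inside a peak of both lists lay 1.63%, against 0.549% and 0.357%. Peaks near moved positions had median signals of 54 and 30 upstream and 55 and 29 downstream, above the 48 and 25 of the members, in replicates 1 and 2. At closer distances replicate 1 turned: within 150 bp the members had 54 and 27, against 48 and 29 upstream and 51 and 31 downstream, and inside a peak 60 and 28, against 54 and 34, and 46 and 31.

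The signal of a peak is the authors' own whole number per peak, with no stated normalization, so it was ranked within a list only. For each TSS the strongest peak within 500 bp was taken, and in what follows replicate 1 comes first in each pair of signals. The members had a median signal of 48 in replicate 1, with quartiles at 27 and 73 and a range of 5 to 132. In replicate 2 the median was 25, with quartiles at 16 and 35 and a range of 3 to 83. Open TSSs at a ratio of 0.27 or more had medians of 115 and 71, and 19 and 10 members exceeded these, 7 of them in both lists. Low-CpG TSSs with a peak in 1 list only were weaker, with medians of 14 and 9. Ranked among all 25197 open TSSs, the median member sat at percentile 6.98 (mean of both lists), and 60.4% of members sat below percentile 10. The order of the members was similar in both lists, with a Spearman correlation of 0.75 across TSSs, and of 0.76 across open TSSs of higher ratio. TSSs share peaks and are not independent, so these are descriptions.

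**Figure D2:**
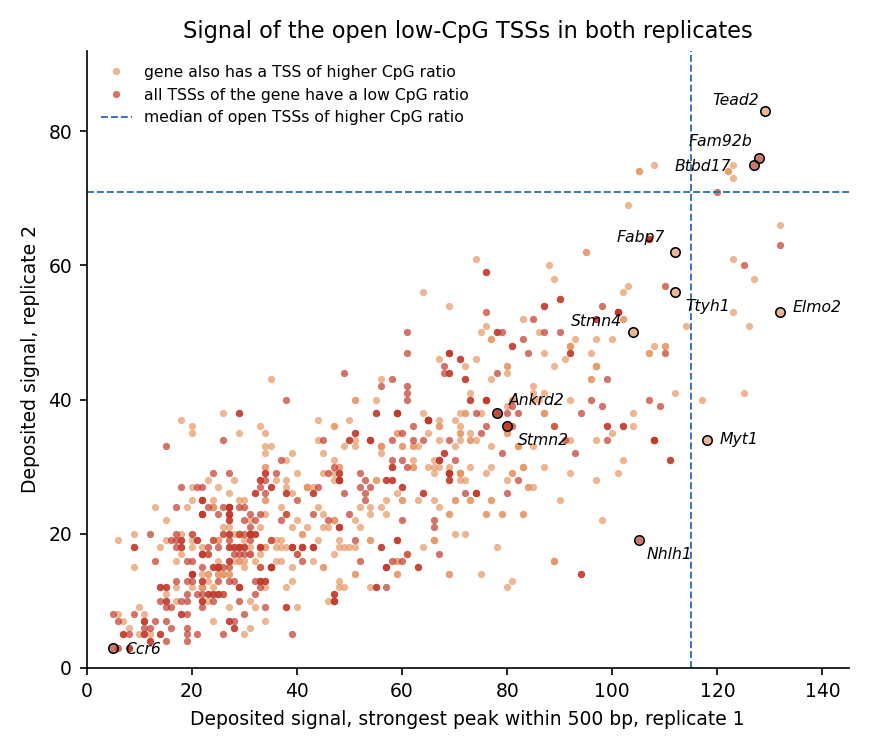
Deposited signal of the strongest peak within 500 bp of each of the 847 open low-CpG TSSs in replicate 1 (x axis) and replicate 2 (y axis), coloured by whether the gene also has a TSS of higher CpG ratio. Dashed lines mark the medians of open TSSs of higher ratio, 115 and 71, and 7 members lie above both; circled points are TSSs of named genes.

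The strongest member was a TSS of Tead2, a transcription factor of the Hippo pathway that is active in neural progenitors, with signals of 129 and 83. Its peak lay 486 bp upstream of the TSS in both lists. Fam92b, which takes part in the formation of motile cilia, had 128 and 76 with the TSS inside the peak of both lists. Btbd17 had 127 and 75, and its strongest peaks were centred 446.5 and 466.5 bp downstream. Ddr1, a receptor for collagen, had 132 and 66, and St5 had 123 and 75. Of the 12 strongest, the others were Angptl2 (132 and 63), a pair of Gstm7 TSSs (122 and 74), Phf21a (123 and 73), Cbln3 (120 and 71), Elmo2 (132 and 53) and Mafk (127 and 58). Several of these strong peaks stood nearer to another start. The Ddr1, St5, Gstm7 and Phf21a peaks were each also the strongest peak of a TSS of higher ratio of the same gene within 500 bp. The Cbln3 peak was nearer to a TSS of higher ratio of its neighbour Khnyn, 555 bp from the Cbln3 TSS. Fam92b, Btbd17 and Angptl2 had only low-CpG TSSs, and no TSS of higher ratio of any gene lay within 30 kb of them.

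At the other end were Ccr6, a chemokine receptor, with 5 and 3, Gm7735 with 6 and 3, and a pair of Gm13762 TSSs with 8 and 3. The largest differences in rank between the lists were all towards replicate 1: Elmo2, Tspan18 (125 and 41), Fgd4 (126 and 51) and Myt1 (118 and 34). Nhlh1, a bHLH factor of newborn neurons, had 105 and 19 and was chosen after its values were seen. Whether such differences come from the embryos or from the libraries was not tested.

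At the CpG limit, the last TSSs inside were those of Gm21969 (ratio 0.269972, signals 49 and 44) and Cd72 (0.269943, 27 and 24). The first open TSSs outside were those of E230025N22Rik (0.270026, 27 and 8) and Sspn (0.270293, 21 and 13). At the distance limit, Il17rd was a member with peaks 499 and 459 bp away, while Sost, with peaks 281 and 501 bp away, was not. The TSSs of Mipol1 and 4931408C20Rik held no CpG at all in their windows and had signals of 49 and 18, and of 30 and 22.

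The peaks of the members were placed less tightly around the TSS than those of TSSs with more CpG. The TSS lay inside a peak of both lists in 22.1% of members, against 37.6% of open TSSs of higher ratio. The strongest peak was centred within 100 bp of the TSS in 41.4% of members in replicate 1 and 37.4% in replicate 2, against 56.5% and 52.7%. It was centred upstream in 66.8% and 56.6% of members, against 73.3% and 60.7%. The strongest peaks of both lists overlapped in 68.1% of members, against 80.7%. Hotspots, the authors' wider regions of raised cutting, were narrower at members, with median widths of 362 and 591 bp, against 1051 and 1589 bp.

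**Figure D3:**
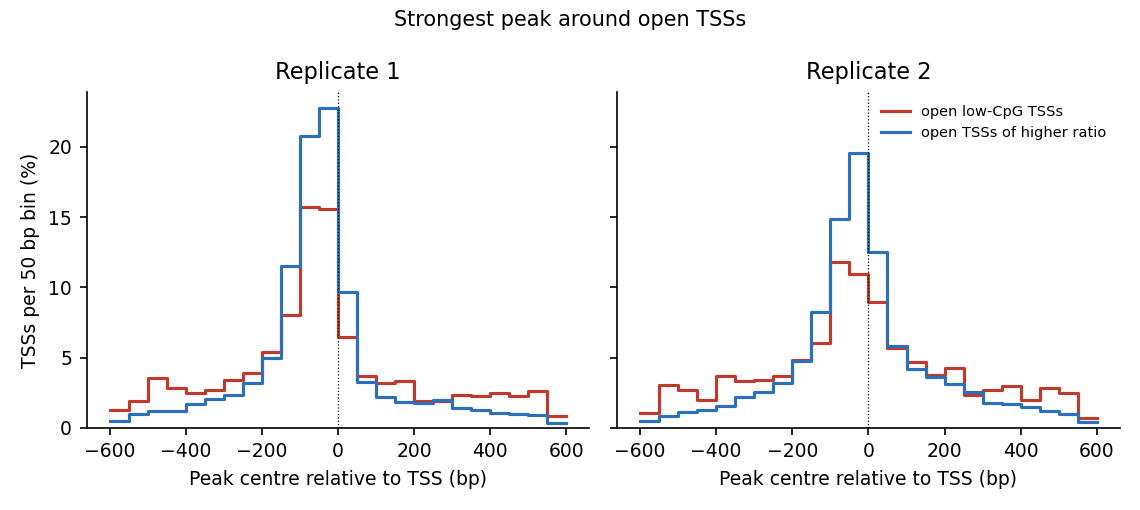
Position of the centre of the strongest peak relative to the TSS (x axis, bp, negative upstream) as the percent of TSSs per 50 bp bin (y axis), for open low-CpG TSSs (red) and open TSSs of higher ratio (blue) in each replicate. Both groups are highest just upstream of the TSS, and 41.4% of members against 56.5% of the others lie within 100 bp in replicate 1.

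Many of the members belonged to genes that also have a TSS of higher CpG ratio, meaning 0.27 or more and so not always rich in CpG. A TSS of higher ratio was annotated for the gene of 412 members (48.6%, 322 genes), against 20.8% of closed low-CpG TSSs. Without the olfactory and vomeronasal receptor genes, which held 28.7% of closed TSSs, the shares were 49.4% and 27.5%. Of these 412 members, 250 lay downstream of the nearest such TSS of their gene. Among low-CpG TSSs of genes whose TSS of higher ratio was itself open, 17.4% were open (374 of 2148). Where the TSS of higher ratio was not open, 5.97% were (38 of 636), and in genes with low-CpG TSSs alone 435 of 8697 were. Members with such a partner had the stronger peaks, with medians of 56 and 27, against 39 and 23 for the 435 members of genes with low-CpG TSSs alone.

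Distance to the partner bears on these shares, because 111 members lay within 1 kb of a TSS of higher ratio. For 51 members the strongest peak of replicate 1 was centred nearer to such a TSS than to their own. Of the other members with a partner in the gene, 306 lay over 1 kb from the nearest one, and in 245 cases that partner was open. The partner had the stronger peak in both lists in 188 of these 245 and the member in 27. Median signals were 52 and 25 at these members and 99 and 63 at their partners.

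Ttyh1, a membrane protein of neural stem cells, was among the 27. Its low-CpG TSS (ratio 0.202, chromosome 7 position 4124489) lay in an intron 4904 bp downstream of a TSS of ratio 0.515, and had signals of 112 and 56 where the latter had 69 and 46. For Myt1, a zinc-finger factor of neuronal differentiation, the low-CpG TSS (ratio 0.117) lay 3710 bp upstream of the partner and had 118 and 34, against 69 and 23. The low-CpG TSS of Cntnap2, a neuronal adhesion protein, lay 2184330 bp downstream of the partner and had 96 and 43, against 77 and 40. The Fgd4 TSS lay 39759 bp downstream, and the lists disagreed on which of its starts was stronger, with 126 and 51 against 49 and 56. Ptprg, a receptor phosphatase, showed the commoner pattern in replicate 2 only: its low-CpG TSS had 117 and 40, against 111 and 89 at the partner 636411 bp away. The genes of this paragraph were chosen after their values were seen.

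Of all members, 372 TSSs (43.9%) lay outside the other transcripts of their gene, 239 (28.2%) in an intron of another transcript and 236 (27.9%) in an exon of one. The start of an annotated internal exon coincided with 3 members (0.354%), against 1.66% of closed TSSs. The bases just before the TSS were AG, the letters that also end introns, at 7.91% of members. They were AG at 9.04% of closed TSSs and 4.58% of all open TSSs. The printed St5 sequence ends in these letters. Transcripts with the best support level of the annotation began at 63.0% of members and 42.5% of closed TSSs. A median of 7 peaks shared by both lists lay 2.5 to 50 kb from a member, against 2 from a closed TSS. None lay there for 5.43% against 36.2%. All open TSSs had a median of 5, and 6.04% had none. Members and closed TSSs were chosen by peaks of the same lists, so nothing is read from this contrast.

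Among the marker genes of the tissue, low-CpG promoters of neural cells were the ones with the highest signals. The neural progenitor list had 4 of 9 low-CpG TSSs open and the neuronal list 4 of 16, beside 7.38% of all low-CpG TSSs. Fabp7, the fatty acid binding protein of radial glia, had 112 and 62 at its low-CpG TSS, though a TSS of ratio 0.286 lay 42 bp away and shared these peaks. Dbi had 34 and 25 and Prom1 38 and 18, both well under Fabp7 and Ttyh1. Of the neuronal genes, Stmn4 and Stmn2, regulators of microtubules in growing axons, had 104 and 50, and 80 and 36, and the Stmn4 peaks were shared with a TSS of ratio 0.272 that lay 69 bp away. The neuropeptide gene Cck had 54 and 19 at both of its low-CpG TSSs. Th and Ddc, which make dopamine in midbrain neurons, each had a low-CpG TSS with a peak in replicate 1 only. Its replicate 1 signal was 45 at Th and 47 at Ddc. The other low-CpG TSSs of both genes were closed.

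The lists for other cell types had lower shares, which for the smaller lists rest on few TSSs. The low-CpG TSSs of the globin genes in the erythroid list were closed. Endothelial genes had 1 of 21 (Ecscr, 17 and 24), and microglia and macrophage genes 2 of 34 (both of Cd68, 33 and 28), shares of 4.76% and 5.88% that lie near the 7.38% of all low-CpG TSSs. Mesenchyme and pericyte genes had 2 of 11 (Vtn, 22 and 25, and Dcn, 17 and 20), or 18.2%, which is above it. Later glia had 0 of 14, heart and skeletal muscle 0 of 31, liver 0 of 23 and epithelium 0 of 9. TSSs of higher ratio of the same genes gave 94.6% open for neural progenitors and 90.7% for neurons, beside 86.5% of all TSSs of that range. The other lists had 78.6% (mesenchyme and pericytes), 71.1% (later glia), 66.7% (erythroid), 50% (microglia and macrophages), 47.2% (endothelium), 44.8% (epithelium), 36.4% (liver) and 20% (heart and skeletal muscle). The 2 neural lists thus had the highest shares in both CpG ranges. In a mixed tissue, a weak peak in all cells and a strong one in few cannot be told apart.

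**Figure D4:**
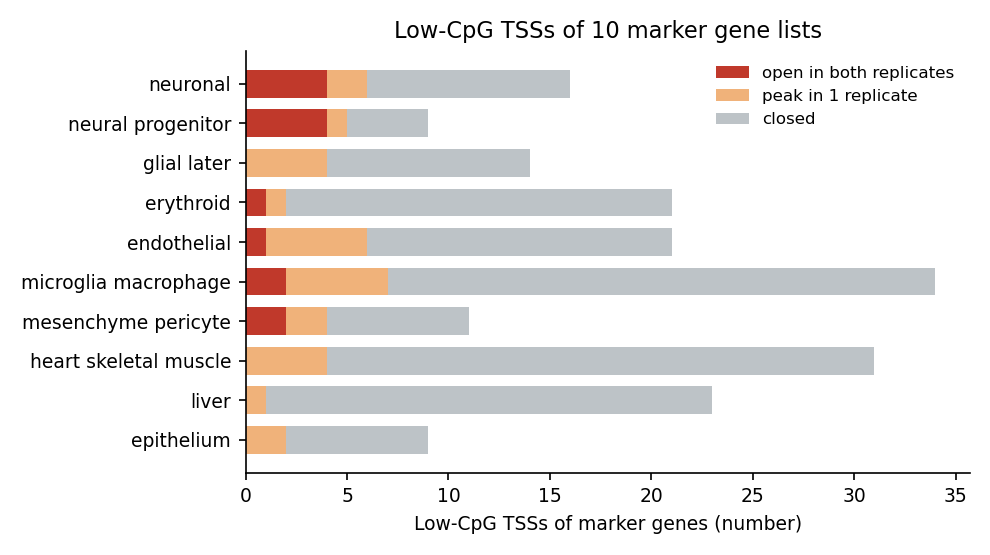
Number of low-CpG TSSs (x axis) of 10 lists of marker genes (y axis) that were open in both replicates (red), had a peak in 1 replicate (orange) or were closed (grey). Neural progenitor genes had 4 of 9 and neuronal genes 4 of 16 open, while muscle, liver, epithelium and later glia had none.

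Olfactory and vomeronasal receptor genes made up 28.7% of the closed set (2610 TSSs), while each other family named here held far fewer of its TSSs. Of 2347 low-CpG TSSs of olfactory receptor genes 14 were open (0.597%), and of 497 of vomeronasal receptor genes 3 (0.604%); the strongest olfactory one, Olfr571, had 55 and 12. Keratins and keratin-associated proteins had 1 of 69 open, defensins 1 of 61, C-type lectins and Ly49 receptors 2 of 74, interleukins and their receptors 2 of 79, chemokines and their receptors 2 of 55 and serpins 3 of 74. None of 50 taste and trace amine receptor TSSs and none of 39 prolactin family TSSs was open. Families nearer to the overall 7.38% were the cytochromes P450 with 9 of 99, among them the retinoic acid hydroxylase Cyp26b1 (76 and 23), the Zfp zinc-finger genes with 9 open, or 6.21% (Zfp532, 105 and 74) and the solute carriers with 10 of 189 (Slc25a25, 92 and 34). The Tmem genes had 12 of 76 (Tmem219, 101 and 29) and the collagens 3 of 15 (Col22a1, 110 and 57). Clustered protocadherins had 0 of 7 and ribosomal proteins 0 of 8. Without the olfactory and vomeronasal receptor genes, 830 of 8637 low-CpG TSSs (9.61%) were open.

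Some groups were formed by gene name after the members had been seen, and their counts support nothing by themselves. For comparison, 7.38% of all low-CpG TSSs were open, and TSSs of 1 gene often had the same peaks, so they are not separate cases. The neurogenic bHLH genes had all 6 of their low-CpG TSSs open: Nhlh1 (105 and 19), 3 of Nhlh2 (54 and 34), Neurod4 (64 and 34) and Neurod6 (14 and 10). Genes of the cilium and its axoneme had 16 of 38 open, in 11 genes, and besides Fam92b, members of the group included Rsph14 (108 and 34), Iqca (100 and 49, peaks shared with a TSS of higher ratio), Spef1 (97 and 49), Cfap61 (85 and 33) and Cc2d2a (83 and 49). Catip and Tppp3 lay between Rsph14 and Iqca in replicate 1. The TSSs of higher ratio of these cilium and axoneme genes were open in 114 of 129 cases, which lies near the 86.5% of all TSSs of that range.

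Genes of MHC class II antigen presentation, which belong to immune cells, had 9 of 17 open in 5 genes, beside 7.38% of all low-CpG TSSs. H2-Eb1 had 76 and 36 and H2-Aa 57 and 28, while Cd74, H2-DMb1 and H2-Ob had 27 and 22, 33 and 15, and 29 and 12. Ciita, their master regulator, was closed at its 3 low-CpG TSSs. Of the 34 low-CpG TSSs of microglia and macrophage genes 27 were closed, among them those of Csf1r, Cx3cr1, Aif1 and Trem2, and 5 had a peak in 1 replicate. Interferon-induced genes had 13 of 56 open (23.2%) in 9 genes, led by Irf9 (80 and 45) and Rtp4 (76 and 40). Complement genes had 8 of 33 open (24.2%) in 5 genes, led by C1rl (84 and 47) and Masp1 (76 and 40). Rtp4 and Masp1 share the same peaks, and the 2 Irf9 TSSs shared theirs with a TSS of higher ratio. Of the TRP channel genes 10 of 25 TSSs were open (40%) in 4 genes, led by Trpm5 (61 and 42) and Trpm8 (56 and 42). The open Trpm1 TSSs all had 20 and 14, and those of Trpm3 all had 26 and 14. The part of immune cells in these peaks was not tested beyond the marker counts given.

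Sequence was compared between open and closed TSSs of the low range in a promoter window from 250 bases before the TSS to 50 after. The rule did not use these letters, apart from CpG. Open TSSs had a median GC content of 51.1% in the window of the CpG ratio, against 43.8% at closed ones, with 13 against 6 CpGs and a ratio of 0.213 against 0.144. Repeats covered a median of 11.5% of the window against 14.4%. Because motifs move with GC content, each share below was also taken within classes of it. TSSs of 1 gene overlap and regions are not replicates, so no test was made.

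A TATA box at its usual place, TATAAA on the sense strand starting 40 to 20 bases before the TSS, was found at 14 members (1.65%) and at 4.40% of closed TSSs. It was found at 1.84% of all protein-coding TSSs. Among open TSSs the members had the higher share, since all open TSSs had 0.766% and those at a ratio of 0.27 to 0.4 had 1.22%. These shares cover the exact letters TATAAA only, and similar letters, such as the tatataag of Btbd17, were not counted. TSSs with a peak in a single replicate had intermediate shares, 3.10% for replicate 1 and 2.28% for replicate 2. The order held in every class of GC content, from 2.86% against 4.02% under 42% GC to 0.733% against 3.57% at 54% or more, and in each of 3 classes of CpG ratio. Without the olfactory and vomeronasal receptor genes the closed share was 5.22% and the open one 1.69%. Of the 14, Zbtb18, a repressor in cortical neurons, had the strongest replicate 1 peak (81 and 29), ahead of the muscle gene Ankrd2 (78 and 38), Adamtsl2 (75 and 35), the leukocyte integrin Itgal (71 and 36), Foxp2 (47 and 28) and Homez (39 and 32). Of these 6, only Adamtsl2 had its TATA box under the strongest peak, in both lists. The nearest peaks of Ankrd2 were 413 and 453 bp from the TSS, those of Itgal 373 and 313 bp, those of Zbtb18 138 and 258 bp and those of Homez 126 bp in each list. The Zbtb18 peaks were also those of a TSS of ratio 0.275 that lay 285 bp away.

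The GC box GGGCGG, the site of Sp1, was found on either strand at 22.0% of members and 5.57% of closed TSSs, against 45.9% of all protein-coding TSSs. It holds a CpG, so the rule limits it, but the gap remained within GC classes: 4.29% against 0.794% under 42%, 22.7% against 9.84% between 48% and 54%, and 35.2% against 22.6% at 54% or more. The cAMP response element TGACGTCA, which holds a CpG too, was found at 12 members (1.42%) and 36 closed TSSs (0.396%), and at 2.30% of all TSSs. Open TSSs at a ratio of 0.27 to 0.4 had 1.72%. Within GC classes the shares ran from 3.08% against 0.504% between 42% and 48% to 0.733% against 0.529% at 54% or more. The 12 include pairs of TSSs of 1 gene, as at H2-Aa. CCAAT showed little difference, with 36.0% against 38.7%, and 36.5% of all TSSs.

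Of the sites of neural factors, the E-box CAGCTG was found at 24.7% of members and 16.4% of closed TSSs, and at 15.5% of all. Its closed share was 19.5% without the olfactory and vomeronasal receptor genes. Within GC classes the gap was smaller, with 14.3% against 9.95% under 42%, 17.4% against 15.2% between 42% and 48%, 25.2% against 25.3% between 48% and 54%, and 31.9% against 29.0% above. The E-box CAGATG was at 24.0% against 21.8% (14.4% of all TSSs). ACAATG, the Sox site, was at 16.6% against 18.8% (10.2% of all) and exceeded the closed share only in the middle GC classes, with 21% against 15.7% and 19.7% against 15.2%. TAATTA, the core of homeodomain sites, was at 4.01% against 11% (4.74% of all). Without the same receptor genes its closed share was 6.97%. The letters AGATAA, read by the GATA factors, were at 12% against 18.4% (9.58% of all). Under 42% GC the shares were 7.14% against 18.4% for the homeodomain site and 18.6% against 25% for the GATA site, while at 54% or more they were 2.56% against 2.51% and 8.06% against 8.33%.

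The RFX half-site was searched after the promoter sequences had been read. GTTGCC on either strand was at 14.3% of members (121), 9.88% of closed TSSs and 11.6% of all TSSs, and at 17.6% of members inside a peak of both lists. Against closed TSSs the share of members was the higher in each GC class, from 10.0% against 5.77% under 42% to 13.9% against 12.3% at 54% or more. Other open TSSs came near the members, with 12.8% at a ratio of 0.27 to 0.4 and 13.6% at 0.4 to 0.6. Within the strongest peaks members had no excess. There 10.0% and 9.25% of distinct peaks of members held the half-site in replicates 1 and 2, against 10.8% and 10.5% at 0.27 to 0.4. Fam92b holds GTTGCC and its reverse complement 1 base apart just before its TSS, and by peak strength the next genes with a half-site in the window were Btbd17, Ddr1, Elmo2, Zfp532, Ttyh1, Arvcf, Celf3, Cdk2ap1 and Sh2d6. The palindromic full RFX site that had been listed earlier matched no member.

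**Figure D5:**
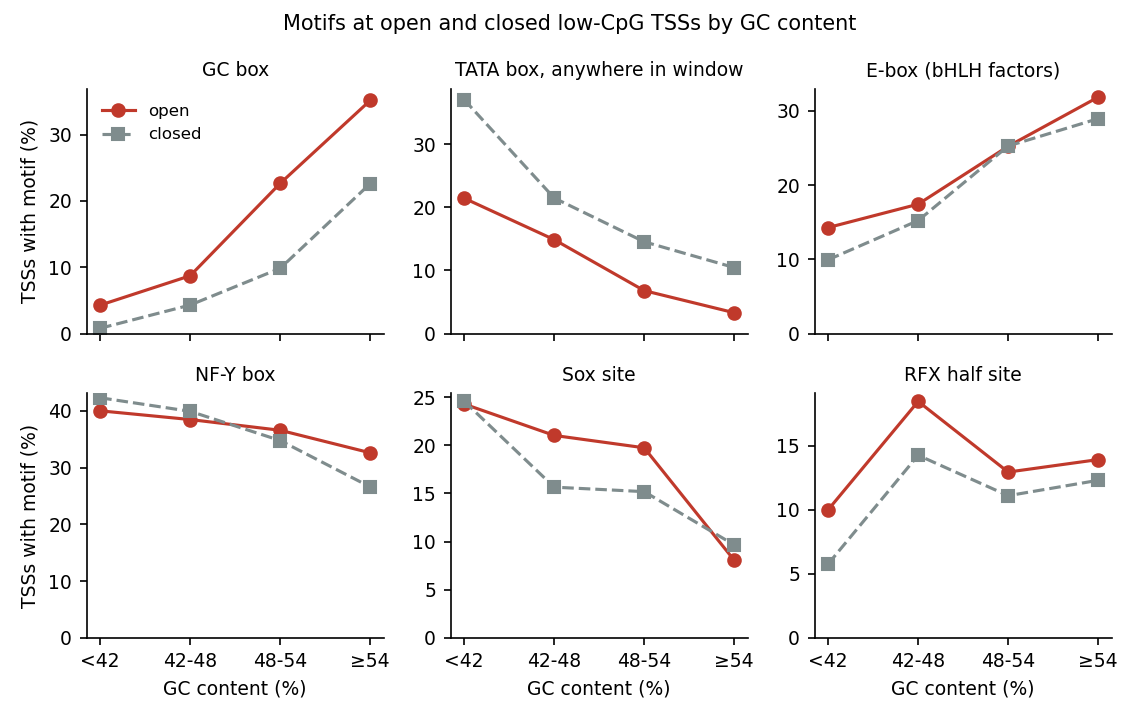
Percent of low-CpG TSSs with a motif in the promoter window (y axis), by GC content of the 1 kb around the TSS (x axis), for open (red circles) and closed (grey squares) TSSs. The GC box is higher at open TSSs in every class and the TATA letters lower, while the E-box lines meet at 48% to 54%.

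Sites for CTCF, the insulator protein, were rare but unevenly spread. The CTCF consensus matched the promoter window of 16 members (1.89%) and of 0.0330% of closed TSSs, against 0.540% of all protein-coding TSSs. Members are few in absolute number here, since only 3 of 9099 closed TSSs had a match. Within the strongest peak itself, CTCF was matched in 4.22% of distinct peaks of members in replicate 1 and 4.39% in replicate 2. This share fell as the CpG ratio of the TSS rose, to 1.60% and 1.20% between 0.27 and 0.4, and to 0.448% and 0.389% at 0.6 or more. Members with a match in the replicate 1 peak had median signals of 67.5 and 36, against 47 and 24 for the others. Matches at 8 of these promoters are printed in capitals with the bases around them, so that their cores can be compared. Those of Ahcyl2, Rufy4, Zdhhc1 and Myo1h are on the antisense strand.

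Hsd3b7, plus strand, chr7:127800499-127800528: gtggactggCCACCAGGGGGCactctggca
Ahcyl2, plus strand, chr6:29853519-29853548: gtggtgccaGCCCCCTGGTGGgagcagacc
Rufy4, plus strand, chr1:74125296-74125325: cccctttccGCCATCTACTGGcaacaagac
Zdhhc1, minus strand, chr8:105484550-105484579: ggggttgctGCCCTCTGGTGGtctggttct
Plch2, minus strand, chr4:155054839-155054868: cagtatcctCCAGCAGGGGGCgctgtggtg
Pcp4, plus strand, chr16:96467580-96467609: cactgtgctCCACTAGGTGGCtctttgcgc
Bpifb4, plus strand, chr2:153943722-153943751: cggaagcatCCAGCAGGGGGCagtgtcttc
Myo1h, plus strand, chr5:114356812-114356841: accagcagaGCCCTCTAGTGGgctgctgtg

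Hsd3b7, an enzyme of bile acid synthesis, had the strongest of these peaks, with 107 and 64, and its printed window lies 105 to 76 bases before the TSS. By mean percentile it was followed by Ahcyl2 (74 and 61), Rufy4 (87 and 54) and Zdhhc1 (75 and 50). Plch2 had 67 and 46, Pcp4, a calmodulin regulator of neurons, 68 and 45 with the match just before the TSS, Bpifb4 61 and 47 and Myo1h 70 and 37. The match lay under the strongest peak of both lists at Hsd3b7, Rufy4, Zdhhc1, Plch2, Pcp4 and Bpifb4. At Ahcyl2 the peaks, 335 and 315 bp from the TSS, missed it in both lists, and at Myo1h the peak held only part of it in replicate 1 and none in replicate 2. A match to a consensus is a description of the letters, and binding was not measured.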

How the data were processed

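DNase-seq peaks and hotspots of 2 midbrain replicates were used as deposited by the authors on mm10. Which aligner, caller and filters made them is not given in the sources used here. Each replicate has its own lists. Each peak carries a deposited signal, a whole number from 1 to 148 in replicate 1 and to 130 in replicate 2, with no stated normalization. Each hotspot carries a −log10 q-value, deposited by the authors with a floor of 1.30 and a ceiling of 100.

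Distinct TSSs came from GENCODE vM21 basic protein-coding transcripts. CpG ratio, GC content and motifs were read from GRCm38.p6 with Python 3.11.15, pysam 0.24.0 and pandas 2.3.3. Of 24 motifs, 23 were listed at the start and the RFX half-site was added later; the scripts were tested on simulated data.

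With 1 group no test between conditions was possible, and TSSs are not replicates, so no p-value is given. Depth is unknown. Members, gene lists and motifs were chosen with earlier results of these data known. Named TSSs were the 12 strongest, 4 weakest, 4 most different between lists, those at the limits, the 6 strongest with a TATA box, up to 4 per marker list and 1 per family; others are said to be chosen after their values were seen. The alternatives tried were distance, CpG limit and window, peak strength, hotspots, transcript set, nearby TSSs and single replicates. Some items are not reported here.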

Additional observations from a re-analysis of the deposited data

How the results depend on the processing

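The 847 open TSSs became 535 with a peak within 150 bp, 359 and 1637 at CpG limits of 0.2 and 0.35, 372 with 1 TSS per gene, 1460 to 1769 when either replicate was left out and 187 with the TSS inside a peak of both lists. Their share of 7.38% became 4.66% within 150 bp, 10.9% within 1000 bp, 4.26% and 11.6% at the limits of 0.2 and 0.35, 12.7% to 15.4% without a replicate, 9.61% without receptor genes and 1.63% inside peaks. The median percentile of 6.98 became 8.19 within 1000 bp, 5.91 and 9.43 at these limits, 7.71 with the ratio over 250 bp each side, 7.67 with the stronger 50% of peaks, 29.1 with hotspots (a rank on −log10 q-values, many of them tied at the ceiling of 100), 4.85 with 1 TSS per gene, 7.83 with all protein-coding transcripts, 6.19 away from TSSs of higher ratio, 4.91 to 5.61 without a replicate and 5.92 inside peaks. In the ranking that gave 6.98, the members inside a peak of both lists had a median percentile of 10.3, so their 5.92 comes from another ranking. Their median signals were 60 and 28, against 48 and 25 for all members. The open minus closed TATA share of -2.74 percentage points became -3.17 within 150 bp, -3.27 at 0.2, -3.29 over 250 bp, -4.10 with 1 TSS per gene, -2.17 with all transcripts, -2.34 to -1.94 without a replicate, -3.54 without receptor genes and -3.33 inside peaks. The GC difference of 7.39 points became 7.79 within 1000 bp, 8.29 and 6.79 at the limits, 7.79 over 250 bp, 7.89 with stronger peaks, 6.79 with 1 TSS per gene, 6.99 with all transcripts, 5.69 to 6.09 without a replicate, 4.995 without receptor genes and 7.09 inside peaks. No direction changed in these alternatives, and the causes of the shifts were not tested. Leaving out receptor genes and the TSS inside peaks were chosen after seeing the data. No paired analysis was possible because there is 1 group. Depth is unknown, so weak peaks found in 1 list only cannot be judged.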
